A study of Mus musculus with 5 samples.

Results

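The acetylation of histone H3 at lysine 9 (H3K9ac) was examined at 10 genes. They were Ahnak and genes of the cell's focal adhesions: Tns1, Tns3, Vcl, Tln1, Pxn, Zyx, Itgb1, Ptk2 and Ilk. Peaks were assigned to a gene by their centre, which had to fall no farther than 10 kb from any annotated transcript start of that gene in the mm9 mouse genome. This rule took 46 of the 34286 peaks of DOP-treated cells and 50 of the 33355 peaks of vehicle-treated cells, around 10 of 22380 protein-coding genes. Both of these peak lists are longer than the study's methods report for the same condition. The cells were STHdh Q111 striatal progenitors, an established mouse line (labelled strain C57BL/6, genotype STHdhQ111/Q111) in which both copies of huntingtin carry the mutant repeat of Huntington's disease. Both groups were kept for 24 h in medium without serum, 2 samples each, with either DPBS vehicle (Q111 SST) or 4 mM 4-deoxypyridoxine hydrochloride (Q111 DOP), an inhibitor of sphingosine-1-phosphate lyase, and 1 IgG sample came from vehicle-treated cells. Wild-type Q7 cells were not analysed here, so every value belongs to serum-starved cells with mutant huntingtin of 1 line. Each condition is present as 1 peak list without replicates, so no difference given here has a replicate check and no test was possible. The question was where these genes carry the mark and whether DOP changed it.

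Focal adhesions are the sites where a cell grips the extracellular matrix. Integrins bind the matrix outside, talin and vinculin tie their tails to actin, and kinases and scaffold proteins gather there to pass on signals from the matrix. H3K9ac is a mark of active promoters and enhancers, and at a promoter it usually lies on the nucleosomes beside the transcription start, which itself tends to be free of nucleosomes. Ahnak, a very large scaffold protein under the plasma membrane, and Tns1 (tensin 1), which links integrins to actin, are 2 genes that the study also silenced in these cells.

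The upstream sequences of Tns1, Tns3, Ahnak and Vcl are shown because all 4 genes start in GC-rich sequence while their peaks were very unequal. Each run covers the 200 bases before the outermost start of GENCODE vM1 or RefSeq (GRCm38.p6 promoters placed on mm9), reads in the direction of the gene and overlaps no annotated exon of GENCODE vM1, and capitals mark CpG pairs. Tns1 lies on the minus strand (chr1:74171123-74171322, 25 CpG), Tns3 on the minus strand (chr11:8564539-8564738, 23 CpG), Ahnak on the plus strand (chr19:9063550-9063749, 14 CpG) and Vcl on the plus strand (chr14:21748420-21748619, 18 CpG).
Tns1 upstream: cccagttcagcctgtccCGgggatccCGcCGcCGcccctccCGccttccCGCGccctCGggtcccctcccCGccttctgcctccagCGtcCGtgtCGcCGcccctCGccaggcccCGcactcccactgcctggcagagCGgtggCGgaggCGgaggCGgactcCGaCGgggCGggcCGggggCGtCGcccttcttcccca
Tns3 upstream: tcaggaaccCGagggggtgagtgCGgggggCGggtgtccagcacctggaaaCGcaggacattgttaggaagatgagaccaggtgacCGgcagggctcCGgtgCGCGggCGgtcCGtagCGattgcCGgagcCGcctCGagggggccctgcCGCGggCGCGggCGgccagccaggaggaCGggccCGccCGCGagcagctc
Ahnak upstream: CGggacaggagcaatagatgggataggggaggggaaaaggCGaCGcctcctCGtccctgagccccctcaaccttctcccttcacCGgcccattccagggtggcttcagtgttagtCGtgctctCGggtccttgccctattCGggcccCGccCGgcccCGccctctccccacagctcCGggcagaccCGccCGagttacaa
Vcl upstream: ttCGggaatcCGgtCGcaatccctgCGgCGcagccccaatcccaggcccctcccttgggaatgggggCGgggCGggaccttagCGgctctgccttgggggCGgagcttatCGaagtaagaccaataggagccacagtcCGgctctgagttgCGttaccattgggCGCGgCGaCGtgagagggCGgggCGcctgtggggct

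Also shown are the sequences under 3 peaks of 1 list only, each more than 1 kb from a start and poor in CpG. Shared peaks away from a start could be as poor: those of Ahnak at 6647 and 2497 bp with DOP held 2 CpG each. The vehicle-only peak of Tns3 held 8 CpG. The 3 shown are the DOP-only peak in an intron of Tns1 (chr1:74168520-74168719, minus strand, 3 CpG), the DOP-only peak upstream of Ahnak (chr19:9058250-9058449, plus strand, 2 CpG) and the higher-scoring of 2 vehicle-only peaks in introns of Ahnak (chr19:9072460-9072659, plus strand, 0 CpG).
Tns1 DOP-only peak: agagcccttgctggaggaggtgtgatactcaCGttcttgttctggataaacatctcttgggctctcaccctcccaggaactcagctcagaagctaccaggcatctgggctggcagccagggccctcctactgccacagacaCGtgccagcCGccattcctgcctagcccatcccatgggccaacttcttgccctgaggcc
Ahnak DOP-only peak: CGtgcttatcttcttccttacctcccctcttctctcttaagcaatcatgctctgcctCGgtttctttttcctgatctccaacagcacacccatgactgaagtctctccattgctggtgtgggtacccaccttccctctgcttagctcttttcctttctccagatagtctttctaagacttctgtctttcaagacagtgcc
Ahnak vehicle-only peak: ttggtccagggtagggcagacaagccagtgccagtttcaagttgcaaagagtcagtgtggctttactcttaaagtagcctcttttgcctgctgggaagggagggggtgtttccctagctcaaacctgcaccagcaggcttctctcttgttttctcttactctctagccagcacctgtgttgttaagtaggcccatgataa

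H3K9ac lay close to a start in both lists at 9 of the 10 genes, the exception being Tns1. All 10 of 10 genes had a DOP-treated peak within 10 kb, against 57.7% of all protein-coding genes, and 9 of 10 had a vehicle peak, against 56.9%. Counts were higher with DOP at 3 genes (Tns1, Vcl and Tln1), lower at 4 (Ahnak, Tns3, Pxn and Ilk) and equal at 3 (Zyx, Itgb1 and Ptk2). Of the 13272 protein-coding genes that had any peak, 32.5% held more of them with DOP and 28.5% fewer.

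**Figure D1:**
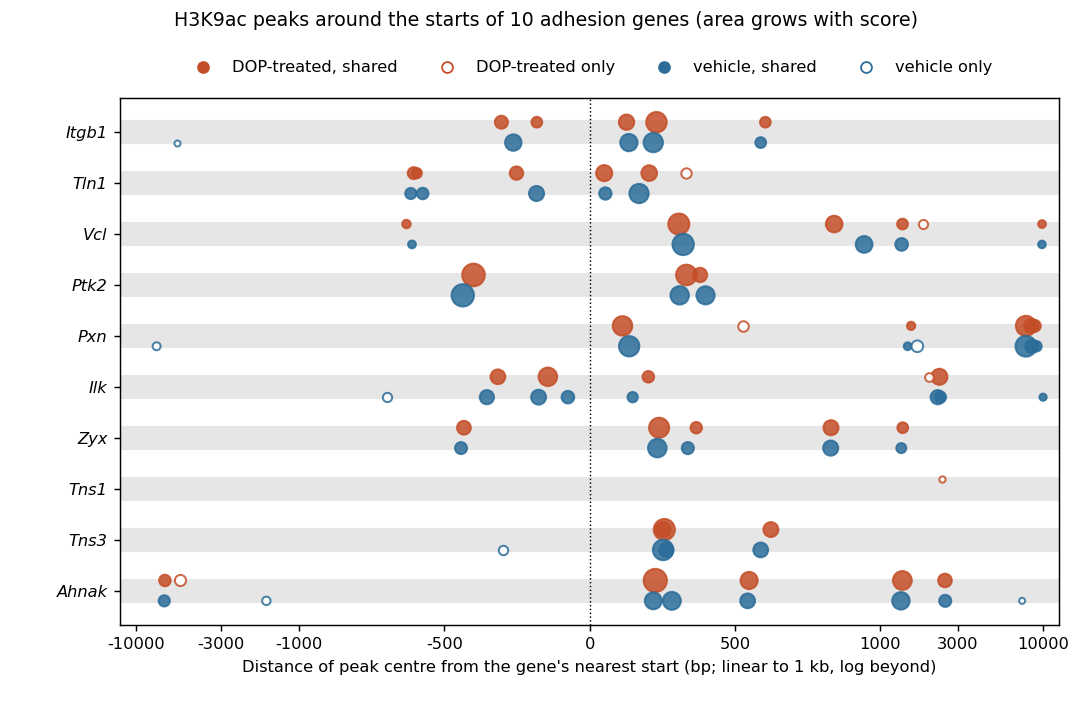
Distance of every peak centre from the nearest start of its own gene (x axis, bp, linear to 1 kb and logarithmic beyond), with the DOP-treated list above the vehicle list in each row. Filled points overlap a peak of the other list and open points do not, and the area of a point grows with its score. The largest point stands just downstream of a start in 6 rows, upstream of it in those of Ptk2 and Ilk and 7817 bp from one, by Rplp0, in that of Pxn, and the Tns1 row holds a single small open point.

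Around the start itself the members' peaks were placed much like all peaks. Measured to the nearest start of any protein-coding gene, 17 of the 35 DOP-treated peaks within 1 kb (48.6%) and 18 of the 37 vehicle peaks (48.6%) were centred 50 to 400 bp downstream, against 48.1% and 49.3% of all peaks within 1 kb. Between 150 bp upstream and 50 bp downstream lay 4 and 5 (11.4% and 13.5%), against 10.6% and 10.4%. Measured to starts of the member itself, the latter interval held 1 peak in each list, both at Ilk, which has 12 start sites. By annotation, 28 of the 46 DOP-treated peaks were centred in introns, 15 outside the gene, 2 in a coding exon (both in Zyx) and 1 in a 5′ UTR (Ilk). In the vehicle list 30 of 50 were intronic, 16 outside, 2 in a coding exon of Zyx and 2 in the 5′ UTR of Ilk.

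A peak was called shared when its 200 bp interval overlapped one of the other list by at least 1 bp, and otherwise counted as present in 1 list only. Of the 46 DOP-treated peaks, 6 (13.0%) were DOP-only, against 20% of the whole list, and 7 of the 50 vehicle peaks (14.0%) were vehicle-only, against 16.7%. The 6 DOP-only peaks lay at Ahnak, Tns1, Vcl, Tln1, Pxn and Ilk, 1 each. The 7 vehicle-only peaks lay at Ahnak (2), Pxn (2), Tns3, Itgb1 and Ilk (1 each), and neither Zyx nor Ptk2 had a peak of 1 list only. Chained at gaps of up to 1 kb within a list, the members' peaks formed 19 clusters with DOP and 23 with vehicle.

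The score is the value the authors gave each peak. The lists do not define it, so it is used here with its percentile within its own list, and the depth behind it is unknown. The members' peaks scored above the middle of both lists, with a median at percentile 68.9 with DOP and 63.4 with vehicle. In each list 11 peaks stood in the top 10% (23.9% and 22.0% of the members' peaks). The peaks of 1 list only were weak: the DOP-only ones reached from percentile 3.71 to 43.6 and the vehicle-only ones from 2.81 to 50.5. In the whole lists weakness and presence in 1 list go together, since 53.5% of the DOP-treated peaks under the 25th percentile were DOP-only, against 4.48% of those above the 50th. Shared peaks of the members sat close together, with a median of 23 bp from a DOP-treated centre to the nearest vehicle centre (33 bp over the whole list).

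**Figure D2:**
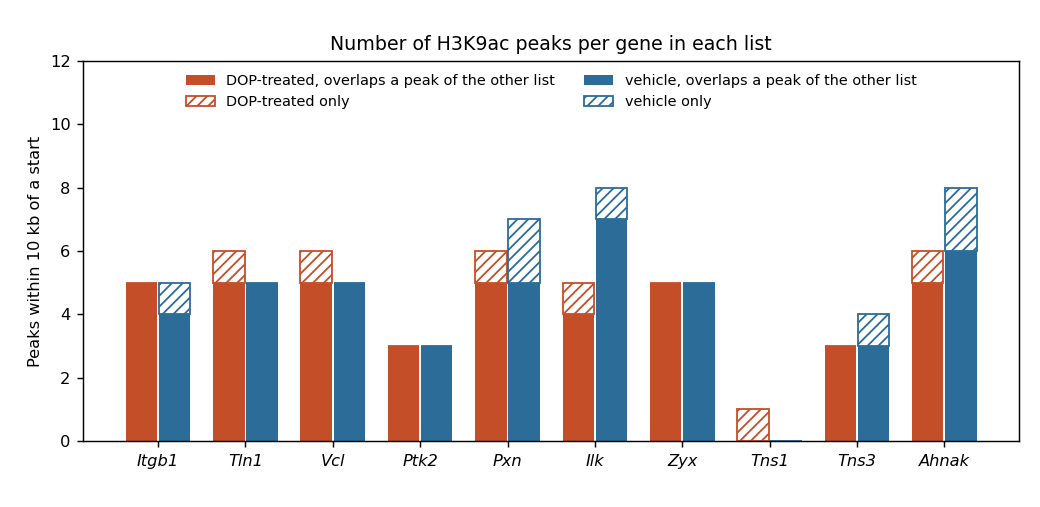
Number of peaks within 10 kb of a start of each gene (y axis) in the DOP-treated (left bars) and vehicle (right bars) lists, divided into peaks that overlap one of the other list (solid) and peaks that do not (hatched). Counts run from 3 to 8 in 9 genes, and Tns1 has 1 hatched DOP-treated peak and no vehicle peak.

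Scores of single peaks have to be read with their neighbours. Among peaks with no other peak of their list within 1 kb, 97.9% had whole-number scores in either list, whereas among peaks with a neighbour within 500 bp only 12.4% and 13.1% did. Summed over neighbouring peaks the fractions mostly vanished: of the loci with 2 or more peaks, 93.6% with DOP and 93.1% with vehicle added up to a whole number (within 0.05). A locus here is a run of centres of either list with gaps of at most 1 kb. The lists could thus hold similar totals for a locus in different numbers of peaks, and each gene is given both by its single peaks and by the sum over its locus, a measure chosen after the scores were seen.

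Itgb1 encodes the integrin β1 subunit, the matrix receptor shared by many integrin pairs (chr8:131209554-131257100, plus strand). Its best peak scored 1452 in the DOP-treated list, 230 bp downstream of a start, and 1288 in the vehicle list, 219 bp downstream. The 2 lists differed in how they divided the flanks. Upstream of the start there were 2 DOP-treated peaks (533 at 304 bp and 328 at 182 bp) and 1 vehicle peak (905 at 263 bp), while 127 to 135 bp downstream the scores were 776 and 1011. Over the whole locus, 5 DOP-treated peaks covering 1000 bp (mean 683) summed to 3416 and 4 vehicle peaks covering 800 bp (mean 885) to 3540, a ratio of 0.965. Its 1 vehicle-only peak, 5595 bp upstream, had a score of 39, near the bottom of the list (percentile 2.81).

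Tln1 encodes talin 1, which binds integrin tails and switches the receptor on (chr4:43544391-43575563, minus strand, 8 start sites). The pair of peaks just downstream of a start changed places between the lists: 809 (205 bp) and 866 (50 bp) in the DOP-treated list against 1285 (170 bp) and 467 (54 bp) in the vehicle list. The best single peak was therefore lower with DOP (866 against 1285), a ratio of 0.674, whereas the locus sums were 2523 (mean 631) and 2858 (mean 714), a ratio of 0.883, from 4 peaks and 800 bp in each list. Of these 4, 2 in each list lie nearer to a start of Creb3, a neighbouring gene, than to Tln1. Farther into the gene a DOP-only peak (299, 332 bp downstream of an internal start) stood beside a shared one (433 with DOP, 397 with vehicle), which gave that second locus sums of 732 from 400 bp and 397 from 200 bp, a ratio of 1.84. The means ran the other way, 366 over 2 DOP-treated peaks and 397 for 1 vehicle peak.

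Vcl encodes vinculin, which reinforces the link from talin to actin under load (chr14:21748655-21852895, plus strand). Its best peak was about equal in the lists, 1538 at 307 bp downstream with DOP and 1591 at 322 bp with vehicle. The next peaks downstream scored 925 (842 bp) and 943 (945 bp), then 333 (1372 bp) and 502 (1355 bp). Beyond them the DOP-treated list had a further peak of 211 at 1841 bp that no vehicle peak overlapped. Weak shared peaks stood 612 to 631 bp upstream (171 with DOP and 132 with vehicle) and 9.8 kb downstream (130 and 120). Summed over the main locus, 5 DOP-treated peaks (1000 bp, mean 635) gave 3177 and 4 vehicle peaks (800 bp, mean 792) gave 3168, which are nearly equal.

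Ptk2 encodes focal adhesion kinase (chr15:73035535-73253621, minus strand, 1 start site). It was the member with the strongest peak upstream of its start: 1795 at 400 bp with DOP and 1749 at 437 bp with vehicle, both near the 98th percentile. Downstream, the same pair of peaks was divided unevenly with DOP (1472 at 333 bp and 662 at 380 bp) and evenly with vehicle (1160 at 310 bp and 1124 at 399 bp). The 3 peaks of each list, 600 bp in both, summed to 3929 (mean 1310) and 4033 (mean 1340), a ratio of 0.974.

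Pxn encodes paxillin, a scaffold for kinases at the adhesion (chr5:115956685-116005996, plus strand, 13 start sites). Its own start peak scored 1312 with DOP (113 bp downstream) and 1435 with vehicle (136 bp). A DOP-only peak of 314 followed at 528 bp, and a vehicle-only peak of 404 at 1691 bp. The start locus summed to 1626 over 2 DOP-treated peaks (400 bp, mean 813) and to 1435 over 1 vehicle peak (200 bp), a ratio of 1.13. This ratio rests on the chaining distance, since the vehicle-only peak of 404 lay 1163 bp from the nearest DOP-treated centre and with it the vehicle sum was 1839, a ratio of 0.884. Farther in, a shared intronic peak was weak (159 and 132), and a second vehicle-only peak of 138 lay 7472 bp before an internal start. The highest scores counted for Pxn, 1402 and 1506, belong to a cluster of 3 peaks in each list beyond the end of the gene whose nearest start is that of Rplp0, a ribosomal protein gene.

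Ilk encodes integrin-linked kinase, a scaffold at the integrin tail (chr7:112885106-112891439, plus strand), and sits among close neighbours. Only 1 of its 5 DOP-treated and 1 of its 8 vehicle peaks were nearest to an Ilk start, the others being nearer to Rrp8, Taf10 or Tpp1. At the start, 3 DOP-treated peaks (711, 1175 and 402; 600 bp, mean 762) stood against 5 vehicle peaks (224, 650, 728, 494 and 299; 1000 bp, mean 479). The sums were 2287 and 2395, a ratio of 0.955, although the best single peak was 1175 with DOP and 728 with vehicle, a ratio of 1.61. The 1 DOP-only peak (187) lay by Taf10 and the 1 vehicle-only peak (224) by Rrp8. A further vehicle peak, of 98 by Tpp1, was counted because its centre fell 9950 bp from an Ilk start, while the DOP-treated peaks of that locus lay past 10 kb.

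Zyx encodes zyxin, a LIM-domain protein of mature adhesions and stress fibres (chr6:42299827-42310145, plus strand). It had 5 peaks in each list, all of them shared, at centres 1 to 29 bp apart. From upstream to downstream the scores were 610, 1386, 391, 747 and 334 with DOP and 440, 1178, 452, 752 and 276 with vehicle. The first, second and last of these were higher with DOP, and the sums were 3468 (mean 694) and 3097 (mean 619) over 1000 bp each, a ratio of 1.12.

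Tns3 encodes tensin 3, a paralogue of tensin 1 (chr11:8331655-8564538, minus strand). Its start carried 2 shared peaks, 1567 at 257 bp and 728 at 624 bp downstream with DOP, and 1458 at 253 bp and 712 at 589 bp with vehicle. They summed to 2295 (mean 1150) and 2170 (mean 1080) over 400 bp each, a ratio of 1.06. An internal start showed 731 with DOP and 638 with vehicle just downstream. There the vehicle list had a second peak of 232 at 298 bp upstream with no DOP-treated counterpart, so the sums were 731 over 200 bp and 870 over 400 bp, a ratio of 0.84.

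Tns1 stood apart from its paralogue (chr1:73956805-74171021, minus strand, 3 start sites). Within 10 kb of its starts the DOP-treated list had 1 peak, 2402 bp downstream of the outermost start, in an intron, with a score of 50 (percentile 3.71, in a list whose lowest score is 23). The vehicle list had no peak there, and its nearest peak centre was 23397 bp away. The same counts, 1 DOP-treated and 0 vehicle peaks, were found at 395 of the 13272 protein-coding genes with any peak. Of the 13272, 6.76% had peaks in 1 list only. The start is rich in CpG all the same. Its window from 250 bp upstream to 50 bp downstream of the outermost protein-coding start held 40 CpG at 79.3% GC, more CpG than 95.4% of 22354 promoters, and 907 of the 1030 promoters with at least 40 CpG (88.1%) belonged to genes with a vehicle peak. Tns3, with 33 CpG in the same window, and Ptk2, with 42, had strong peaks in both lists. A lack of a peak says only that none was listed, since depth and threshold are unknown.

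Most peaks of Tns1 lay deep in its introns, past the 10 kb window. The whole gene held 10 DOP-treated peaks with a summed score of 2047 and 5 vehicle peaks with 1108. About 26 kb from the outermost start, 2 peaks stood in each list (163 and 293 with DOP, 184 and 151 with vehicle). About 161 to 162 kb from it, 3 DOP-treated peaks (187, 554 and 326) stood against 2 vehicle peaks (474 and 258). These loci summed to 456 and 335 over 400 bp each (means 228 and 168) and to 1066 over 600 bp and 732 over 400 bp (means 355 and 366), with ratios of 1.36 and 1.46 for DOP over vehicle. Between them lay 4 DOP-only peaks (190, 122, 104 and 59) and 1 vehicle-only peak (41). The peaks of 122 and 104 formed 1 locus. Each of these scores but the 554, 474, 326, 293 and 258 was below the 25th percentile of its list.

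Ahnak was the opposite case, with high-scoring peaks at its start (chr19:9063750-9151409, plus strand, 5 start sites). At the start the DOP-treated list had 1 peak of 1898 (226 bp downstream, percentile 98.8, the highest score of any member), and the vehicle list had 2, of 962 (219 bp) and 1088 (283 bp), which together amount to more than the DOP-treated one. The next peaks were shared: 993 and 712 at 549 and 544 bp, 1210 and 1033 at 1369 and 1342 bp, and 591 and 447 at 2497 and 2505 bp. Each of these 3 was higher with DOP. Over the start locus, 3 DOP-treated peaks (600 bp, mean 1370) summed to 4101 and 4 vehicle peaks (800 bp, mean 949) to 3795, a ratio of 1.08, although the best single peaks stood at a ratio of 1.74.

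Upstream of Ahnak lay a shared peak of 399 with DOP (6647 bp) and 369 with vehicle (6708 bp), and beside it the DOP-only peak of 362 (5401 bp, percentile 43.6), the strongest of the members' DOP-only peaks. The nearest vehicle centre was 1307 bp from it. The vehicle-only peaks were intronic and weaker, 167 at 1591 bp before an internal start and 39 at 7408 bp after another. In count Ahnak thus had fewer peaks with DOP (6 against 8), and 34 of the 13272 protein-coding genes with any peak had the same pair of counts. Deeper in the gene stood 3 peaks in each list, among them a shared one about 70.2 kb from the start (152 and 194).

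**Figure D3:**
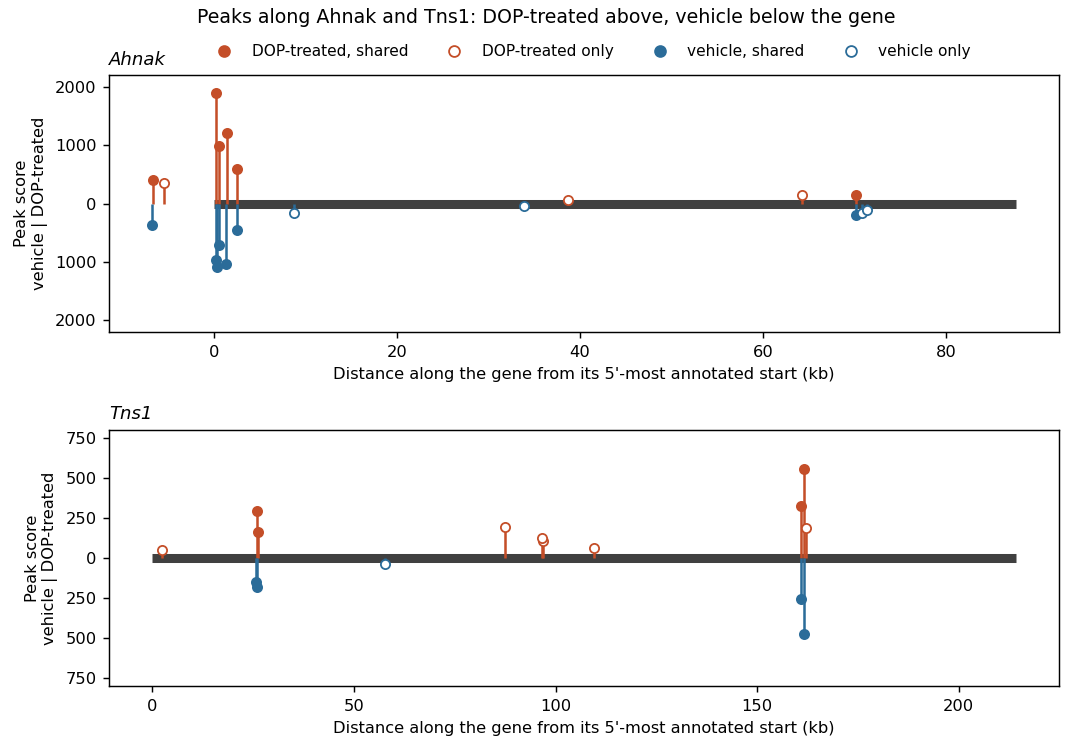
Peaks along Ahnak (top) and Tns1 (bottom), with distance from the 5′-most annotated start in kb on the x axis and the score of each peak on the y axis, DOP-treated upwards and vehicle downwards from the bar that marks the gene. Open points have no overlapping peak in the other list. The peaks of Ahnak crowd within 3 kb of its start with scores up to 1898, while those of Tns1 reach 554 and lie mostly 26 kb or more into the gene, where DOP-treated peaks outnumber vehicle peaks.

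Inside genes and past the 10 kb window, the 10 members together had 20 DOP-treated peaks, of which 11 were DOP-only, and 12 vehicle peaks, of which 3 were vehicle-only. Over all protein-coding genes 42.9% of 2129 such DOP-treated peaks and 38.2% of 1997 such vehicle peaks were in 1 list only. Of these, 9 of the 20 and 5 of the 12 belong to Tns1.

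Compared by locus, the members differed little between the lists. Peaks of both lists were held by 18 loci, and 13 of them (72.2%) had the higher summed score with DOP, where 69.4% of the 13561 such loci of the genome did. Of the 15 loci whose best peak lay nearest to the member itself, 10 were higher with DOP. The median ratio of DOP-treated to vehicle sums was 1.06 over the members and 1.09 over all loci. Over the 6713 loci whose sums of both lists together exceeded 2000, the median was 1.04 and the 5th to 95th percentile 0.809 to 1.39. The members' loci were not matched to others by score. Only 5 of the 18 loci exceeded the median of all loci. The total of all scores in the DOP-treated list was also 1.06 times that of the vehicle list. Of the 18, the second Tln1 locus was the 1 that fell outside the span from the 5th to the 95th percentile of all loci (0.802 to 1.63), from 2 DOP-treated peaks and 1 vehicle peak. With each score divided by its list's total, 8 of the 18 were higher with DOP, so 5 of the 18 turned direction with this scaling. It moves all loci alike. The share of all loci that were higher after this scaling is not given here, so the 8 cannot be set beside it.

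**Figure D4:**
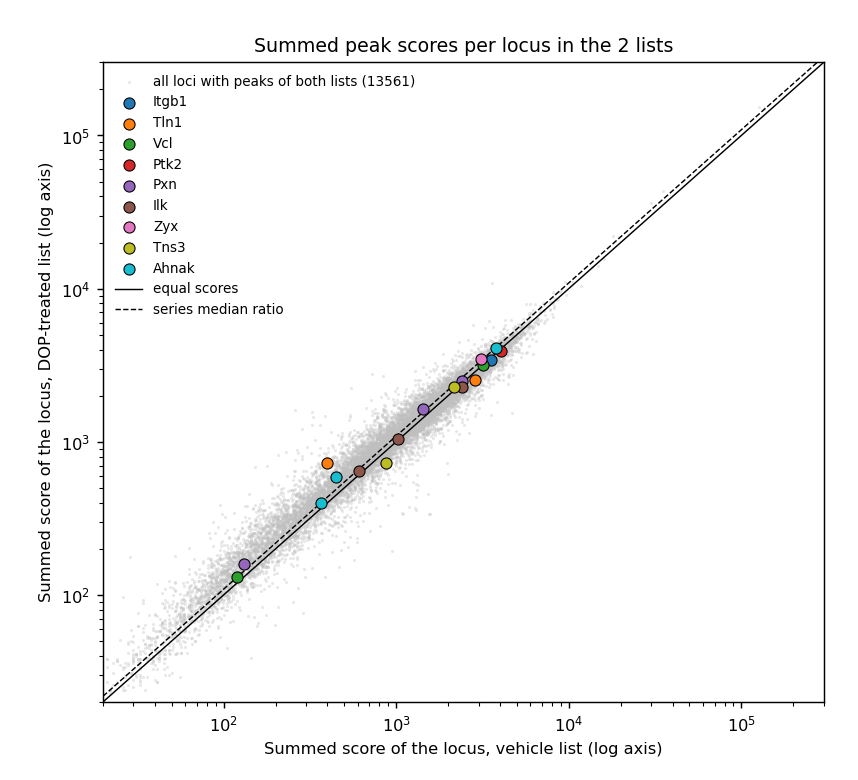
Summed score of each locus in the vehicle list (x axis) and the DOP-treated list (y axis), both logarithmic, for all 13561 loci with peaks of both lists (grey) and the 18 loci of the members (coloured by gene). The solid line marks equal sums and the dashed line the median ratio of 1.09. The members lie within the grey band, with a Tln1 locus highest above it at a ratio of 1.84.

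At the main locus of each gene, the one with the highest summed score whose best peak lies nearest to the gene itself, 9 genes could be compared. The sum was higher with DOP at 5 and with vehicle at 4, and the ratios ran from 0.883 (Tln1) to 1.13 (Pxn). The best single peaks of the same loci ran from 0.674 (Tln1) to 1.74 (Ahnak). For Ahnak, Ilk and Tln1 the ratio of sums was closer to 1 than that of the best peaks. These 3 are named because their best peaks differed most, which by itself favours a milder second measure. Over all loci with peaks of both lists, the median absolute base-2 logarithm was 0.19 for sums and 0.231 for best peaks. Over the 18 loci of the members it was 0.112 and 0.153, without matching by score. For Pxn the ratio of sums was farther from 1, 1.13 against 0.914. The direction depended on the chaining distance at 3 of the 9 genes: Pxn was lower with DOP at 2 kb (0.884), and at 500 bp Vcl was lower (0.967) and Ilk higher (1.04).

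**Figure D5:**
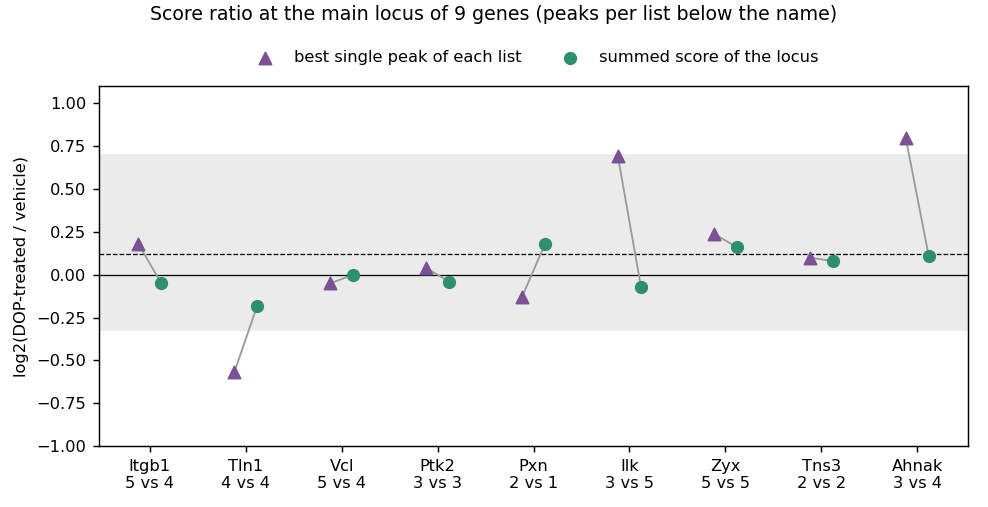
Base-2 logarithm of the DOP-treated over the vehicle score at the main locus of 9 genes, for the best single peak of each list (triangles) and for the sum over the locus (circles), with the number of peaks per list under each name. The grey band spans the 5th to the 95th percentile of summed ratios over all loci, weak ones included (-0.32 to 0.70), and the dashed line their median (0.12). Triangles of Ahnak (0.80), Ilk (0.69) and Tln1 (-0.57) lie far from 0, while their circles lie at 0.11, -0.07 and -0.18.

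The promoter windows of the members were rich in CpG. All 10 members had a peak. Of promoters with at least 40 CpG, the number in Tns1, 87.7% belonged to genes with a DOP-treated peak, against 57.7% of all protein-coding genes. Among the members only Tns1 and Ptk2 reach 40 CpG, so this share is no background for the others. The members were not compared with promoters of genes with a peak alone, so the shares below are beside all promoters. Windows of 250 bp upstream and 50 bp downstream of the outermost protein-coding start held 18 to 42 CpG, against a median of 12 over 22354 promoters. All 10 held GGGCGG, the GC box read by Sp factors, on either strand, as did 44.0% of all promoters. CCAAT, the box read by NF-Y, was in 2 of the 10 (37.9% of all promoters). The CArG box, bound by SRF, was in none of the 10 (1.46% of all promoters). GGAATG, the motif of TEAD factors, was in 3 (Itgb1, Vcl and Ahnak) against 13.4%, and TGANTCA, the AP-1 motif, in 1 (Zyx) against 6.80%. The CArG box and TGANTCA read the same on both strands and were counted once, and no motif was required to be free of another. A match describes these letters in this window and shows no binding.

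Peaks of 1 list only had a lower median GC, and distance from a start was not separated from this. Median GC was 58.0% over the 46 DOP-treated and 57.5% over the 50 vehicle peaks (59.5% over each whole list). For peaks in 1 list only it was 51.0% over the 6 DOP-only and 52.0% over the 7 vehicle-only ones (52.5% and 51.0% over the whole lists).

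A wider list of 114 other adhesion genes had H3K9ac nearly as often as the members. With DOP 94 of them (82.5%) and with vehicle 91 (79.8%) had a peak, against 57.7% and 56.9% of all protein-coding genes. Counting only peaks nearest to the gene itself, 89 and 86 had one. Of the 95 with any peak, 32 (33.7%) had more DOP-treated peaks, 26 (27.4%) fewer and 37 equal numbers. Of all genes with a peak, 32.5% had more and 28.5% fewer. All 11 LIM and zyxin family genes had peaks in both lists, as did 15 of 16 kinases and phosphatases and 18 of 20 actin linkers and regulators. Shares were lower for integrin activators (4 of 7 in both lists) and tensins (1 of 2 in both). With DOP and vehicle, 9 and 8 of 13 integrin α chains and 8 and 7 of 13 matrix ligands had a peak. No peak in either list was found for 19, among them Itga2, Itga4 and Itga8 of the integrin α chains, Tln2, the haematopoietic kindlin Fermt3, Tns4, and the laminin chains Lama1, Lama2 and Lama4.

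In the wider list 5 of the 95 genes with a peak (5.26%) had peaks within 10 kb of a start in 1 list only, where 6.76% of all genes with a peak did. Itgb4 (integrin β4, of hemidesmosomes; 2 peaks, best 76.5), Lims2 (a partner of Ilk; 1 peak, 170), Itga7 (laminin-binding integrin α7; 2 peaks, best 415 but nearest to Bloc1s1) and Vtn (the matrix protein vitronectin; 2 peaks, best 187 and nearest to Sarm1) had them with DOP. Sorbs2, an actin-linked adaptor, had 1 of 36 with vehicle. Of the 2 Itga7 peaks, 1 overlapped a vehicle peak centred past the 10 kb window. Lims2 has the same pair of counts as Tns1.

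Peaks were most numerous at the adaptor Bcar1 (12 with DOP and 14 with vehicle), at Git1 (8 and 7), Git2 (8 and 5) and Abl1 (7 and 9), all signalling genes of the adhesion. Fn1, which encodes fibronectin, also had 8 in the vehicle list, the best of them nearest to Apol7d. The highest single scores were those of Lpxn (2681 with DOP and 2827 with vehicle, though nearest to Zfp91). Next came the fibronectin receptor chain Itga5 (2461) and Tenc1, the gene of tensin 2 (2261), with DOP, and Bcar1 (2510) and Git2 (2186) with vehicle.

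The label of the cells as striatal progenitors was compared with marker genes through the same lists, which hold a chromatin mark and not expression. Of 13 markers of striatal or ventral forebrain progenitors, 7 had a DOP-treated and 6 a vehicle peak (53.8% and 46.2%), below the 57.7% and 56.9% of all protein-coding genes, so these counts do not set the progenitor markers apart. Vim had 3 and 4, Dlx1 4 and 5 and Meis2 5 and 4, whereas Nes, Sox2, Pax6, Gsx2 and Bcl11b were among those with none in either list. Ppp1r1b was the 1 of 6 mature neuron markers with peaks (4 and 4, the best nearest to Stard3), Aif1 the 1 of 4 microglial markers (4 and 5, the best nearest to Prrc2a), and 3 of 6 fibroblast or smooth muscle markers had peaks, Col1a1 with 5 in each list. Of the astrocyte markers 1 of 4 (Slc1a3, best 137, percentile 15.0) and of the endothelial markers 1 of 3 (Kdr, 179, percentile 20.6) had a peak with DOP and 0 with vehicle. Of the 4 oligodendrocyte markers 2 had one with DOP and 1 with vehicle, the difference being Mbp (best 81.1, percentile 7.58). These scores are weak, and 53.5% of all DOP-treated peaks under the 25th percentile were DOP-only. The part of these marks in the members' values was not tested.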

How the data were processed

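ChIP-seq for H3K9ac was done on STHdh Q111 cells under DOP (2 samples) and vehicle (2 samples), with 1 IgG sample. The authors used Bowtie 2 on mm9 by the study's methods, whereas the submitters' processing notes name BWA 0.7.10, and GPS for peak calling. Per condition they deposited 1 list, whose values are a score and, of another unit, positions in bp. How samples were combined, whether IgG served as control, the threshold and the depth per sample are not given in the sources used here. Nor is the reason why the lists hold more peaks than the study reports. The IgG sample was not analysed here.

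Start sites, exons and UTRs came from GENCODE vM1, and no peak ended past its chromosome in the NCBIM37 (mm9) assembly. Sharing was an overlap of at least 1 bp, and loci chained centres within 1 kb. The members and lists were chosen with earlier results of these data known. All 10 members were named. From the wider list were named the genes with peaks in 1 list only, the 3 with most peaks and the 3 with the highest scores per list, and those with the counts of Ahnak or Tns1; some genes of these lists are not reported here. Alternatives were other windows, start sites, sharing rules and a stricter threshold. Functions were tested on simulated data. The software was samtools 1.23.1, matplotlib 3.10.9, pysam 0.24.0, scipy 1.17.1, pandas 2.3.3 and numpy 2.4.6 under Python 3.11.15.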

Additional observations from a re-analysis of the deposited data

How the results depend on the processing

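No paired analysis was possible because each condition is 1 list with no replicate values, which also meant that no replicate was left out. Of 118 recomputed values of the main results, 94 kept within 1.5 times the main count or, for a median, within its 95% binomial interval, and 24 did not. Of the 24, 11 concern the DOP-only and vehicle-only peaks, 6 and 7 as reported. With windows of 1 kb these were 2 and 2, and with 20 kb 10 and 11. The vehicle-only count was 4 with windows of 2 kb or 5 kb and with the 5′-most start alone. Centres within 500 bp or 1 kb as the sharing rule left 3 and 2 DOP-only peaks. In the top 50% of each list by score, 0 DOP-only and 1 vehicle-only peaks were found, member peaks numbered 29 and 32, their median percentiles were 81.7 and 81.3, the vehicle clusters 14, and 1 gene had more peaks with DOP. A window of 1 kb left 32 vehicle peaks. The 5′-most start, or protein-coding transcripts alone, left 2 genes with fewer DOP-treated peaks. Chaining at 500 bp gave 31 and 35 clusters. Among alternatives chosen after seeing the data, loci chained at 500 bp gave 20 of 28 higher with DOP. The number of loci rose with that count, from 13 of 18 in the main setting. Scores divided by their list's total gave 8 of 18, with no share over all loci beside it. In the top 50% and in windows of 1 kb or 2 kb, Tns1 had 0 peaks in both lists. Depth and threshold are unknown, so a missing peak is no measure of a missing mark.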

Other observations

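Among the members other than Tns1 and Ahnak, peaks inside the gene but past the 10 kb window were few. Tns3 had 4 in each list, all shared, the strongest about 40 kb from its outermost start (781 with DOP and 887 with vehicle). Their sums were almost equal, 1455 with DOP and 1453 with vehicle. Ptk2 had 2 with DOP (121 and 42), Vcl had 1 (38) and Pxn had 1 (211), each DOP-only, while these 3 genes had no such vehicle peak. These peaks were weak, at percentiles 12.9, 2.59, 2.06 and 25 of the DOP-treated list. Of all DOP-treated peaks inside a gene and past its window, 42.9% were DOP-only. The nearest vehicle centre was 61567 and 69827 bp away for the peaks of Ptk2, 34486 bp for that of Vcl and 3520 bp for that of Pxn. Itgb1, Tln1, Zyx and Ilk had none in either list.

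In Ahnak, the shared peak about 70.2 kb from the start was joined in the vehicle list by 2 vehicle-only peaks (163 and 110) beside it, so that this locus summed to 152 over 200 bp (mean 152) with DOP and to 467 over 600 bp (mean 156) with vehicle.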
